A study of Mus musculus with 36 samples.

Results

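Of the 43472 genes in the count table, 5 were followed across primary enteric glial cells (EGCs): Ntsr1, Kcnmb2, Nptx1, Wscd2 and Pgr. They were chosen by their measured decrease in EGCs given tumor medium in these same libraries, so their differences between tumor medium and the controls at 12 h and 24 h are described and not tested. The EGCs were wild type (WT), grown as neurospheres from the intestines of C57BL/6J mouse embryos and then differentiated. They were left unstimulated or received conditioned medium, either of healthy colon (H-CM) or of the tumor microenvironment (TME-CM), for 6 h, 12 h or 24 h, with 4 libraries in each of the 9 groups. H-CM came from the overnight culture of cells of a digested healthy colon, and TME-CM from cells of digested orthotopic tumors of MC38, a mouse colon cancer line. Both media therefore held products of a mixture of cells, and the unstimulated EGCs received neither. Nothing in the labels says whether the 4 replicates were separate cultures, so p-values measure the spread between these libraries only.

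Enteric glia are the supporting cells of the nervous system in the gut wall, and in culture they remain close relatives of enteric neurons. Ntsr1 encodes a receptor for the gut and brain peptide neurotensin, and Pgr the nuclear receptor for progesterone. Kcnmb2 encodes an auxiliary beta subunit of BK channels, the large potassium channels opened by calcium and voltage, in which the beta subunits set the gating. Nptx1 encodes neuronal pentraxin 1, a secreted protein that gathers AMPA-type glutamate receptors at synapses, and Wscd2 a membrane protein with WSC domains.

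RefSeq places Ntsr1 (gene 18216) on the plus strand of chromosome 2 of GRCm38.p6, the assembly also called mm10, from 180499976 to 180544979. Pgr (gene 18667) lies on the plus strand of chromosome 9 from 8898900 to 8968611. Kcnmb2 (gene 72413) lies on the plus strand of chromosome 3 from 31901861 to 32200180. Wscd2 (gene 320916) lies on the plus strand of chromosome 5 from 113489110 to 113589725. Nptx1 (gene 18164) lies on the minus strand of chromosome 11 from 119538719 to 119547820. The 5 genes are thus on 5 chromosomes. None of their annotated exon bases, between 3128 in Kcnmb2 and 15332 in Wscd2, was shared with another gene on either strand in the GENCODE annotation of the same assembly.

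Since these genes were low together with TME-CM, the promoters that RefSeq (GRCm38.p6) gives for 3 of the 5 are shown, from 250 bases before to 50 bases after a transcript start, 5′ to 3′; that start need not be the outermost one of the gene. The windows are chr2:180499726-180500025 for Ntsr1, chr3:31902453-31902752 for Kcnmb2 and chr9:8899583-8899882 for Pgr, all on the plus strand. Capitals mark every match, on either strand, to the patterns searched other than CANNTG.
Ntsr1: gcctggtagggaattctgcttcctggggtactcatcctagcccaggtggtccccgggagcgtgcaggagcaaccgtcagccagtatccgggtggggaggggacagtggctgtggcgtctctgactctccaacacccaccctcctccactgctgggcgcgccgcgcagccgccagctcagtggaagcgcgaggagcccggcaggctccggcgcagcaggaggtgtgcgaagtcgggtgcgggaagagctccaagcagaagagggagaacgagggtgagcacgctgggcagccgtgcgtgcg
Kcnmb2: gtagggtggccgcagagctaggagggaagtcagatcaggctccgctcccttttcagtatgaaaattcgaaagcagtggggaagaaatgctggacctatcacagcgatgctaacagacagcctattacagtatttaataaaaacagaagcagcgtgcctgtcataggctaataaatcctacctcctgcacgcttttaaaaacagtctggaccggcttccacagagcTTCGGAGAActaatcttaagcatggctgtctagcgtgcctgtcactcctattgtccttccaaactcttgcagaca
Pgr: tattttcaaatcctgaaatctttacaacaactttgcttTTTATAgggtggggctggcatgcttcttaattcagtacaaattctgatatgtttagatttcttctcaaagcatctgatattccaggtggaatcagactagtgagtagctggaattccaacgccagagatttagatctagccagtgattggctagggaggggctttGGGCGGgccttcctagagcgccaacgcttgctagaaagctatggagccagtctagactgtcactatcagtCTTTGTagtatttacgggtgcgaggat
The patterns were TGANTCA (AP-1), TGACGTCA (CRE), TGTTCT (steroid receptor site core), CANNTG (E-box), ACAAAG (SOX type), TTCNNNGAA (STAT type), GGGCGG (GC box), TATAAA, and the NF-kB consensus, the CArG box and the full steroid receptor element. No pattern was found in all 3 windows. The Kcnmb2 window held 1 STAT type match, which 8.3% of the 32851 promoters in the same table also hold. In the Pgr window there was 1 GC box (35.7% of promoters), 1 match to TATAAA (13.6%), 1 SOX type match (18.7%) and 2 E-boxes. The Ntsr1 window held 1 E-box, a pattern in 72.3% of promoters. AP-1, CRE, CArG, NF-kB and steroid receptor patterns had no match in these windows, which says only that these letters are not there. GC content was 68.0% for Ntsr1, 47.7% for Kcnmb2 and 43.7% for Pgr, beside a median of 52.7% over all promoters.

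The libraries were read from the 3′ end of each transcript, so counts are not scaled by length and levels are compared within a gene only. Totals had medians of 1526580 counts at 6 h, 4090589 at 12 h and 5465090.5 at 24 h, and the lowest was 13518, in H-CM replicate 4 of 6 h, where a count of 0 allows up to 110 CPM, the counts relative to the library size. One table entry, Yam1, took between 11% and 48.6% of a library's counts. Levels below are CPM on library sizes scaled by TMM, and log2 fold changes come from edgeR's quasi-likelihood model over the 12 libraries of a time point. The spread between replicates was widest at 6 h, with a common dispersion of 0.572, beside 0.122 at 12 h and 0.0455 at 24 h. Glial markers were present in the 24 libraries of 12 h and 24 h (Sox10 between 56.0 and 81.1 CPM, S100b between 26.2 and 103 CPM), but Gfap was low, at a mean of 3.45 CPM. Markers of neurons (Gap43, 307 CPM), smooth muscle (Acta2, 3065 CPM) and fibroblasts (Col1a1, 3172 CPM) were measured in the same libraries. In such bulk RNA, fewer cells of a type and less RNA per cell cannot be told apart.

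At 24 h, all 5 genes were lower in TME-CM EGCs than in H-CM EGCs, by fitted factors between 2.25 for Pgr and 13.7 for Kcnmb2. In 4 of the 5, Pgr being the exception, every TME-CM library lay below every H-CM library, and 5.57% of the 12713 genes tested showed this. The same 4 genes lay below every unstimulated library, where the share was 6.32% of all genes. These shares are background to a choice already made on these libraries. The median of the 5 log2 fold changes against H-CM was −2.44, beside 0.00 over all genes.

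**Figure D1:**
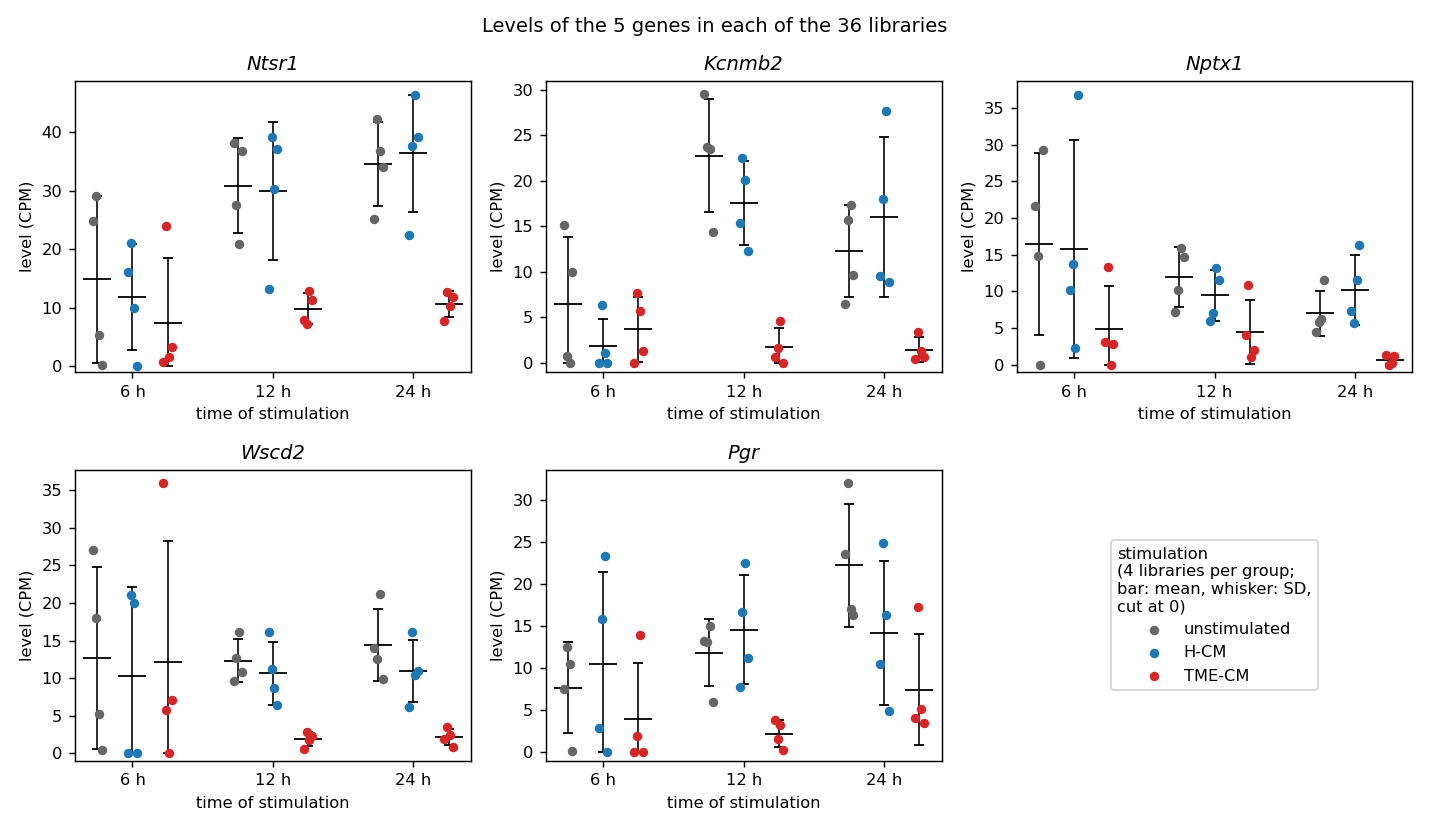
Levels of the 5 genes (vertical axes, CPM, linear) in each library, by time and stimulation, with the mean and SD of 4 libraries per group. At 12 h and 24 h the TME-CM points lie low in each panel, with 1 high Nptx1 library at 12 h (10.8 CPM) and 1 high Pgr library at 24 h (17.3 CPM), while at 6 h the groups overlap in every panel.

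Ntsr1, the neurotensin receptor gene, had the smallest spread of log2 levels among the TME-CM libraries of 12 h (SD 0.36) and of 24 h (SD 0.29), though not of 6 h. At 24 h it measured 7.64, 12.7, 10.2 and 11.7 CPM in the TME-CM libraries, 22.3, 37.6, 46.2 and 39.1 CPM in the H-CM libraries and 25.1, 42.3, 36.7 and 34.0 CPM in the unstimulated libraries. The highest TME-CM library was thus well under the lowest library of either control. On the log2 scale the fold change was −1.81 against H-CM (SE 0.23) and −1.74 against unstimulated EGCs (SE 0.23). At 12 h the TME-CM libraries held 7.96, 7.20, 12.8 and 11.3 CPM and the H-CM libraries 13.2, 39.1, 30.3 and 37.0 CPM. H-CM replicate 1 came close to the TME-CM range without entering it, and the unstimulated libraries lay between 20.9 and 38.2 CPM. At 12 h, the log2 fold change was −1.60 against H-CM (SE 0.33) and −1.64 against unstimulated EGCs (SE 0.33). The TME-CM mean was 9.81 ± 2.66 CPM at 12 h and 10.6 ± 2.19 CPM at 24 h (SD, n = 4), so Ntsr1 stayed at a level that the libraries still counted well, with 18 to 76 reads each.

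Pgr, the progesterone receptor gene, was lowest at 12 h. Its TME-CM libraries then measured 3.88, 1.60, 3.25 and 0.257 CPM, from 19, 4, 16 and 1 reads, against 7.80, 16.7, 22.6 and 11.3 CPM with H-CM and 13.2, 13.1, 15.1 and 6.02 CPM without stimulation. No TME-CM library reached the lowest control library. Its fold change was −2.63 on the log2 scale against H-CM (SE 0.55) and −2.33 against unstimulated EGCs (SE 0.56). At 24 h the TME-CM libraries held 4.04, 17.3, 5.11 and 3.52 CPM, the H-CM libraries 10.6, 25, 16.4 and 4.95 CPM, and the unstimulated libraries 23.6, 32.0, 17.1 and 16.3 CPM. TME-CM replicate 2 lay inside both control ranges, and H-CM replicate 4 lay just below TME-CM replicate 3. Against H-CM the log2 fold change was −1.17 (SE 0.52), and it was −1.82 without TME-CM replicate 2 and −0.78 without H-CM replicate 2. Against unstimulated EGCs it was −1.74 (SE 0.51). TME-CM replicate 2 also had the highest Yam1 share of its time point, 35.1%, and the part of this in its Pgr level was not tested.

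Kcnmb2, the BK channel subunit gene, was at a few reads per library with TME-CM. At 24 h the TME-CM libraries held 0.433, 3.45, 1.35 and 0.671 CPM, from 3, 9, 10 and 4 reads. The H-CM libraries held 9.57, 18, 27.6 and 8.91 CPM, and the unstimulated libraries 6.52, 15.7, 17.3 and 9.64 CPM. All 8 control libraries lay above the highest TME-CM library. Kcnmb2 thus had a log2 fold change of −3.77 against H-CM (SE 0.53), a 13.7-fold difference, and −3.36 against unstimulated EGCs (SE 0.53). At 12 h the TME-CM libraries held 0.612, 1.60, 4.67 and 0 CPM, where the count of 0 in replicate 4 allows up to 0.771 CPM. The H-CM libraries held 15.3, 22.6, 20.1 and 12.3 CPM, and the unstimulated libraries 29.5, 23.8, 23.6 and 14.4 CPM. No TME-CM library reached a control library here either, and the log2 fold changes were −3.28 against H-CM (SE 0.59) and −3.65 against unstimulated EGCs (SE 0.59). Without TME-CM replicate 3, the highest of its group, the change against H-CM at 12 h was −4.70.

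Nptx1, the neuronal pentraxin gene, was lowest at 24 h. At 12 h the TME-CM libraries measured 4.08, 10.8, 1.01 and 2.06 CPM, against 5.92, 7.05, 13.2 and 11.6 CPM with H-CM and 7.12, 10.2, 15.9 and 14.6 CPM without stimulation. TME-CM replicate 2 lay inside both control ranges, and the others lay below them. The log2 fold change against H-CM was −1.14 (SE 0.56), and −1.98 without that library. At 24 h the TME-CM libraries held 1.30, 0, 0.269 and 1.17 CPM, from 9, 0, 2 and 7 reads, and the count of 0 allows up to 1.15 CPM. The H-CM libraries held 7.38, 5.67, 11.6 and 16.3 CPM, and the unstimulated libraries 4.51, 5.77, 6.20 and 11.5 CPM. Every control library was above every TME-CM library. Nptx1 had log2 fold changes of −3.66 against H-CM (SE 0.53) and −3.17 against unstimulated EGCs (SE 0.53). The TME-CM mean was 4.49 ± 4.40 CPM at 12 h and 0.685 ± 0.648 CPM at 24 h (SD, n = 4), and these 2 groups overlapped.

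Wscd2, the WSC domain gene, was at a similar low level at both times. Its TME-CM libraries measured 0.612, 2.80, 1.83 and 2.31 CPM at 12 h and 1.88, 3.45, 2.42 and 0.839 CPM at 24 h. The H-CM libraries held 16.1, 11.3, 8.67 and 6.44 CPM at 12 h and 6.18, 16.2, 10.4 and 10.9 CPM at 24 h. The unstimulated libraries lay between 9.67 and 16.1 CPM at 12 h and between 9.89 and 21.2 CPM at 24 h. No TME-CM library reached a control library at either time. Wscd2 had a log2 fold change against H-CM of −2.52 at 12 h (SE 0.49) and −2.44 at 24 h (SE 0.39). Against unstimulated EGCs it was −2.76 at 12 h (SE 0.50) and −2.83 at 24 h (SE 0.38).

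At 12 h as at 24 h, 4 of the 5 genes had every TME-CM library below every H-CM library, with Nptx1 now the exception. Of all 12156 genes tested at 12 h, 3.27% did so, and 4.61% lay below every unstimulated library, as the same 4 genes did. The times differed in which gene stood closest to the controls, and this difference was not tested. Under each of the alternative settings, 16 for each comparison, all 5 genes kept a negative log2 fold change of TME-CM against both controls at 12 h and at 24 h.

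Ordered by their means over the 6 groups of 12 h and 24 h, the TME-CM groups were the lowest 2 for each of the 5 genes, and they overlapped each other. The highest group was H-CM at 24 h for Ntsr1, unstimulated at 12 h for Kcnmb2 and Nptx1, and unstimulated at 24 h for Wscd2 and Pgr. Every pair of neighbours among the 4 control groups overlapped, so no step between neighbouring control groups was clear of the spread between libraries.

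**Figure D2:**
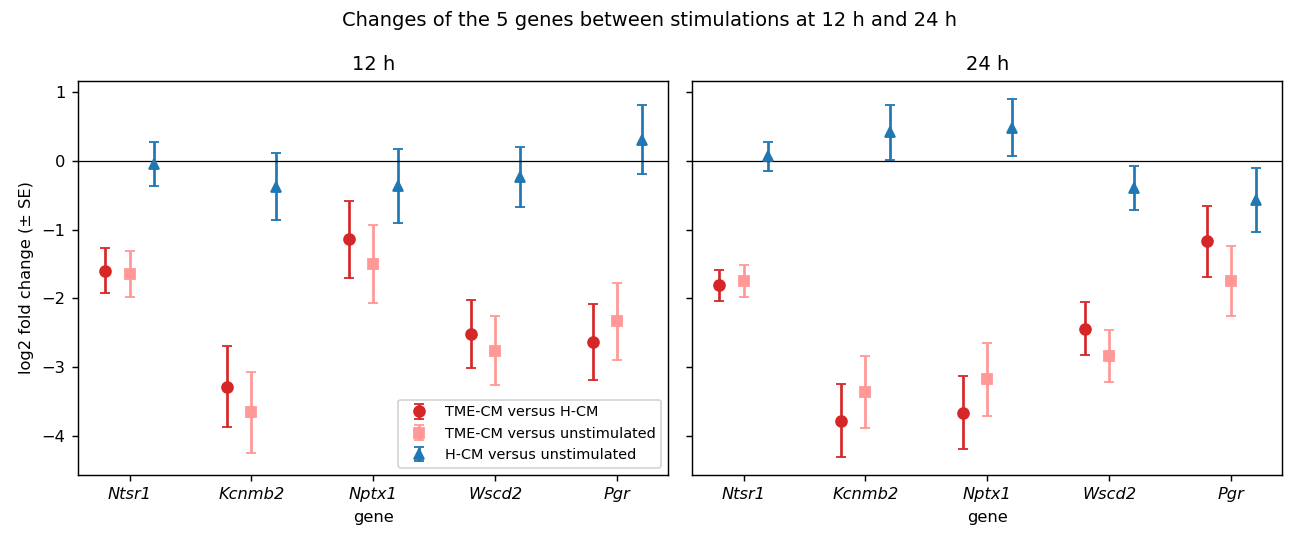
Log2 fold changes (vertical axis, with SE) of the 5 genes at 12 h and 24 h for TME-CM against each control and for H-CM against unstimulated EGCs. Every TME-CM point is at or below −1.14, and the H-CM points lie between −0.57 and 0.48.

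Whether medium from healthy colon moved the same genes was tested between H-CM and unstimulated EGCs, although the H-CM libraries also stood in the comparison that picked the genes. None of the 5 genes was called at 24 h, where 2.03% of all genes were (edgeR, Benjamini-Hochberg adjusted p under 0.05). The log2 fold change at 24 h was 0.07 for Ntsr1 (95% interval −0.37 to 0.51, adjusted p = 0.967, edgeR) and 0.42 for Kcnmb2 (−0.43 to 1.26, adjusted p = 0.836). For Nptx1 it was 0.48 (−0.38 to 1.35, adjusted p = 0.797) and for Wscd2 −0.40 (−1.06 to 0.27, adjusted p = 0.783). For Pgr it was −0.57 (−1.58 to 0.44, adjusted p = 0.787), the widest interval of the 5. The Kcnmb2 estimate was 0.01 without H-CM replicate 3, its highest library. At 12 h none was called either, beside 0.403% of all genes, with log2 fold changes between −0.38 for Kcnmb2 and 0.31 for Pgr (each adjusted p = 0.997, edgeR). At 24 h the interval of Ntsr1 was the narrowest, and those of the other genes reached past 1 on the log2 scale in 1 direction.

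At 6 h none of the 5 genes had a direction clear of the spread between libraries. Kcnmb2 was under the filter on low counts, with 0, 12, 1 and 0 reads in the H-CM libraries and 0, 8, 14 and 6 in the TME-CM libraries. The log2 fold change of TME-CM against H-CM was −1.01 for Ntsr1 (SE 1.27), −1.28 for Nptx1 (SE 1.35), −0.06 for Wscd2 (SE 1.32) and −1.69 for Pgr (SE 1.51). These values moved widely when single libraries were left out. Ntsr1 lay between −2.89, with TME-CM replicate 2 dropped, and −0.64, with replicate 1 of that group dropped. For Nptx1 the bounds were −2.48 and −0.80, from dropping replicates 2 and 3 of the TME-CM group. Wscd2 ran from −1.59 (TME-CM replicate 1 dropped) to 0.42 (H-CM replicate 2 dropped), and Pgr from −4.84 (TME-CM replicate 3 dropped) to −1.06 (H-CM replicate 3 dropped). In the fit of all 12 libraries none of these 4 was called (adjusted p between 0.911 and 0.997, edgeR), as were 0.0972% of all genes in either direction. Against unstimulated EGCs the 4 lay between −1.89 for Nptx1 and −0.11 for Wscd2, none called (adjusted p between 0.858 and 0.995, edgeR), beside 0.454% of all genes. Libraries of 1 group differed widely. Wscd2 measured 35.9, 5.73, 0 and 7.08 CPM with TME-CM, and Ntsr1 measured 24.8, 29.0, 5.26 and 0.213 CPM without stimulation, the last from 1 read in a library of 4631102 counts. H-CM against unstimulated EGCs gave 0 calls among all genes (0%) at 6 h by edgeR, 58 genes having an unadjusted p under 0.05, and 0 by DESeq2.

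In unstimulated EGCs alone, the 5 genes did not pass the test between times. Kcnmb2 had 15.1, 0.783, 0 and 10.03 CPM at 6 h and between 14.4 and 29.5 CPM at 12 h, a log2 difference of 1.51 (SE 0.59, adjusted p = 0.276, edgeR). The share of all genes called between 12 h and 6 h was 0.513%. Pgr was higher in every unstimulated library of 24 h than in every one of 12 h, which 2.76% of genes were, with a log2 difference of 0.90 (SE 0.58, adjusted p = 0.9998, edgeR). Its mean was 11.9 ± 4.00 CPM at 12 h and 22.2 ± 7.30 CPM at 24 h (SD, n = 4). No gene (0%) was called between 24 h and 12 h by edgeR, 116 having an unadjusted p under 0.05. That fit took its spread from all 12 unstimulated libraries, those of 6 h included. Its common dispersion was 0.164, beside 0.122 in the fit of 12 h and 0.0455 in that of 24 h. These p-values thus do not measure the spread of the 12 h and 24 h libraries alone.

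The partners of the 5 genes were taken from lists of their systems. Of the neurotensin system, the ligand gene Nts had 4 reads and the second receptor gene Ntsr2 12 reads over the 24 libraries of 12 h and 24 h. Sort1, which encodes the sorting receptor sortilin, was measured in every library at a mean of 19.7 CPM. Its log2 fold change at 24 h was −0.14 for TME-CM against H-CM (SE 0.22, adjusted p = 0.842, edgeR). Among these 3 genes only Sort1 passed the filter, and it was not called in any comparison.

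Of the 8 other BK channel genes, 4 passed the filter, and none was called for TME-CM against H-CM at either later time, where 0.675% of all genes were called lower at 12 h and 2.65% lower and 2.75% higher at 24 h. With 4 genes and shares this small, a count of 0 does not set the list apart. The genes Kcnmb3, Lrrc26, Lrrc38 and Lrrc52 had no read in the 24 libraries. Kcnma1, which encodes the pore of the channel, was measured at a mean of 2.45 CPM. Kcnmb1, the beta subunit gene typical of smooth muscle, differed between the controls: at 24 h it was at 6.85 ± 1.61 CPM with H-CM and 16.2 ± 2.39 CPM without (SD, n = 4). That log2 fold change was −1.21 (SE 0.24, adjusted p = 0.00745, edgeR), and TME-CM against unstimulated EGCs gave −1.30 (SE 0.24, adjusted p = 0.000756). TME-CM against H-CM gave −0.09 for Kcnmb1 (SE 0.26, adjusted p = 0.927), where Kcnmb2 had −3.77. Kcnma1 gave −1.50 (SE 0.61, adjusted p = 0.196, edgeR) and Kcnmb4 −0.86 (SE 0.54, adjusted p = 0.491). Lrrc55 was at 4.81 ± 5.19 CPM with TME-CM and 9.91 ± 3.61 CPM with H-CM (SD, n = 4). At 12 h the 4 genes lay between −2.02 for Lrrc55 (adjusted p = 0.137, edgeR) and −0.21 for Kcnmb4 (adjusted p = 0.958). Kcnmb2 was chosen for its decrease, and its difference from these genes was not tested.

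Of the 9 pentraxin and AMPA receptor genes, 7 passed the filter. Ptx3, a pentraxin released in inflammation, was higher at 24 h with TME-CM, at 5.56 ± 1.78 CPM against 0.83 ± 1.07 CPM with H-CM (SD, n = 4). Its log2 fold change was 2.64 (SE 0.65, adjusted p = 0.0148, edgeR), the only call of this list against H-CM. Nptx2, the close relative of Nptx1, was at 1.06 ± 0.659 CPM with TME-CM, 1.91 ± 1.20 with H-CM and 5.58 ± 2.11 without stimulation (SD, n = 4). It was called lower against unstimulated EGCs (log2 −2.50, SE 0.57, adjusted p = 0.00505, edgeR) and not against H-CM (−1.01, adjusted p = 0.462). Nptxr, the gene of the pentraxin receptor, had a log2 fold change of 0.53 against H-CM (adjusted p = 0.481), and Gria3, an AMPA receptor gene read in every one of these libraries, −0.41 (adjusted p = 0.497).

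Of the 14 steroid and progesterone receptor genes, 9 passed the filter at 24 h. Paqr8, a membrane progesterone receptor gene, was lower with TME-CM than with H-CM at 24 h (22.0 ± 4.54 against 40.6 ± 13.7 CPM, SD, n = 4), with a log2 fold change of −0.91 (SE 0.23, adjusted p = 0.0214, edgeR). It was the only call of the list in that comparison. Against unstimulated EGCs, where 4.7% of all genes were called lower at 24 h, Paqr8, the estrogen receptor gene Esr1 and the membrane-associated Pgrmc1 were called lower. Their log2 fold changes were −1.07 for Paqr8 (adjusted p = 0.00326, edgeR), −2.73 for Esr1 (adjusted p = 0.0231) and −0.53 for Pgrmc1 (adjusted p = 0.0163). Esr1 was near the floor, with 161 reads over the 24 libraries of 12 h and 24 h. Its mean there was 1.19 CPM, and 5 of these libraries were at 0. The 9 genes had a median log2 fold change of −0.26 against H-CM, beside 0.00 over all genes. Of the 4 WSC domain genes, Kremen1 and Pkd1 passed the filter, and Pkd1 was called lower against unstimulated EGCs at 24 h (log2 −0.62, SE 0.19, adjusted p = 0.0483, edgeR).

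As the 5 genes had been put together as neural genes, they were set beside markers of neurons. Of 13 enteric neuron markers, 12 passed the filter and 0 were called by edgeR for TME-CM against H-CM at either time, with median log2 fold changes of 0.07 at both times. At 12 h 0.675% of all genes were called lower, and at 24 h 2.65% lower and 2.75% higher, so 0 of 12 is near the background. Their summed level at 24 h lay between 699 and 1101 CPM with TME-CM, between 785 and 935 CPM with H-CM and between 745 and 859 CPM without stimulation. The neuron sums of the 3 stimulations overlapped. The 5 genes were chosen for their decrease in these same libraries, so this overlap is no contrast with them. Gap43 and Uchl1, with means of 307 and 193 CPM over 12 h and 24 h, were the largest members of the sum. The part of the neuron markers in the levels of the 5 genes was not tested. Vip, a neuropeptide gene, was the single call against unstimulated EGCs, and it was higher (log2 1.13, SE 0.28, adjusted p = 0.0133, edgeR). Over the 24 libraries of 12 h and 24 h, Pearson's r between the log2 summed neuron markers and each of the 5 genes lay between −0.60 for Pgr and −0.18 for Nptx1. With the group means taken out it lay between −0.60 for Pgr and 0.26 for Nptx1. The same r was positive with the summed glia markers, between 0.63 for Nptx1 and 0.83 for Wscd2. It was positive with the summed smooth muscle markers, between 0.52 for Nptx1 and 0.80 for Wscd2. With the summed endothelial markers it lay between 0.34 for Pgr and 0.80 for Nptx1. With the summed fibroblast and interstitial cell markers it was negative, between −0.47 for Nptx1 and −0.26 for Ntsr1. The 5 genes were chosen by their step with TME-CM in these libraries, so a sum lower with TME-CM tends to give a positive r. With the group means taken out, r lay between −0.03 and 0.43 for glia and between −0.28 and 0.44 for smooth muscle.

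Of 12 enteric glia markers, 11 passed the filter and 2 were called lower with TME-CM than with H-CM at 24 h, where 2.65% of all genes were. These were Cryab, a small heat shock protein gene (log2 −0.53, SE 0.14, adjusted p = 0.0204, edgeR), and Prnp, the prion protein gene (−0.51, SE 0.14, adjusted p = 0.0305). Without H-CM replicate 2 the count was 0. The summed glia markers at 12 h lay between 816 and 857 CPM with TME-CM and between 1008 and 1409 CPM with H-CM, without overlap. At 24 h the ranges were 747 to 987 CPM and 899 to 1101 CPM. Without stimulation the glia sum lay between 1155 and 1325 CPM at 12 h and between 1099 and 1240 CPM at 24 h, above every TME-CM library of the same time. Against unstimulated EGCs at 24 h 2 of the 11 were called lower, beside 4.7% of all genes. The part of the glia markers in the levels of the 5 genes was not tested. The median log2 fold change of the list at 24 h was 0.01 against H-CM and 0.13 against unstimulated EGCs.

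Smooth muscle markers were lower with TME-CM as well. At 24 h, 5 of 8 were called lower with TME-CM than with H-CM (edgeR), where 2.65% of all genes were. These were Acta2, Myh11, Des, Cnn1 and Mylk, with log2 fold changes between −1.40 for Myh11 and −0.52 for Mylk. At 12 h, where 0.675% of all genes were called lower, 4 of 8 were, and 1 (without H-CM replicate 2) to 3 in the fits that left out 1 library each. Without H-CM replicate 2, the count at 24 h was 3. Their summed level at 24 h lay between 2513 and 3373 CPM with TME-CM, between 4314 and 5615 CPM with H-CM and between 9140 and 10876 CPM without stimulation, and none of the 8 was at 0 in any library of 12 h or 24 h. Their part in the result was not tested. They were lower with H-CM too: 7 of 8 were called lower with H-CM than without stimulation at 24 h, against 0.96% of all genes. Of the 5 genes 0 were called lower there, which is near the share of all genes. Their log2 fold changes lay between −0.57 for Pgr and 0.48 for Nptx1, and those of the 8 markers between −1.21 for Actg2 and −0.86 for Mylk. The H-CM libraries had also entered the choice of the 5 genes, and the difference from the markers was not tested.

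**Figure D3:**
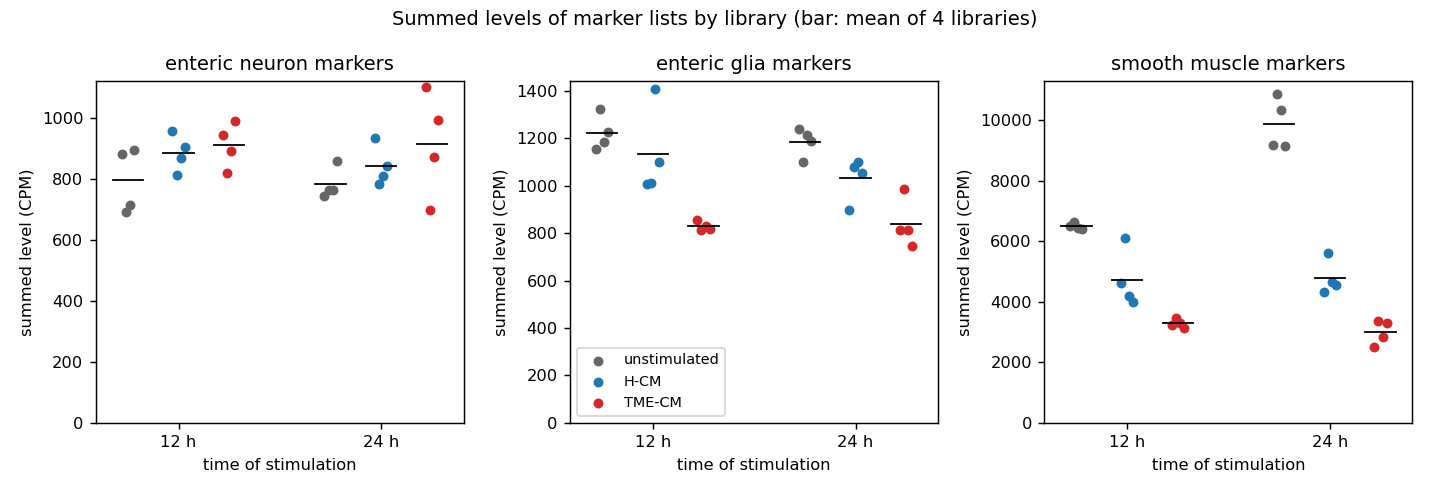
Summed levels (vertical axes, CPM from 0) of the lists of enteric neuron, enteric glia and smooth muscle markers in each library of 12 h and 24 h, with the mean of 4 libraries. The neuron sums of the 3 stimulations overlap, while the smooth muscle sums at 24 h step down from unstimulated (9140 CPM or more) to H-CM (4314 to 5615 CPM) to TME-CM (3373 CPM or less).

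Other cell type lists gave mixed directions for TME-CM against H-CM at 24 h. Of 9 fibroblast and interstitial cell markers, 4 were called higher (Pdgfra, Col3a1, Dcn and Lum), where 2.75% of all genes were, and 3 lower (Pdgfrb, Kit and Ano1). Kit and Ano1, the markers of the pacemaker cells of the gut, had log2 fold changes of −1.28 (SE 0.34, adjusted p = 0.0322, edgeR) and −1.22 (SE 0.25, adjusted p = 0.00634). Of the endothelial markers, Kdr was called lower (−1.65, SE 0.30, adjusted p = 0.00203), while Cdh5 was at 0 in 14 and Tek in 17 of the 24 libraries. Macrophage markers gave no call among 6 genes tested, their sum lying between 61.1 and 315 CPM with TME-CM and between 70.3 and 305 CPM with H-CM. Epithelial and mesothelial markers summed to at most 8.82 CPM in any library of 24 h. The part of these lists in the levels of the 5 genes was not tested.

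The 5 genes differed in how closely they followed one another. Pearson's r of log2 CPM (prior count 2) over the 24 libraries of 12 h and 24 h was highest for Kcnmb2 and Wscd2 (0.87), followed by Ntsr1 and Kcnmb2 (0.84). It was lowest for Nptx1 and Pgr (0.29). These values describe libraries that share 3 stimulations and the choice of the genes, so much of each r is the step between TME-CM and the controls. With the group means taken out, r was 0.34 for Kcnmb2 and Wscd2, 0.32 for Ntsr1 and Kcnmb2 and −0.33 for Nptx1 and Pgr. Only Kcnmb2 and Pgr kept a value above 0.4 (0.71).

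**Figure D4:**
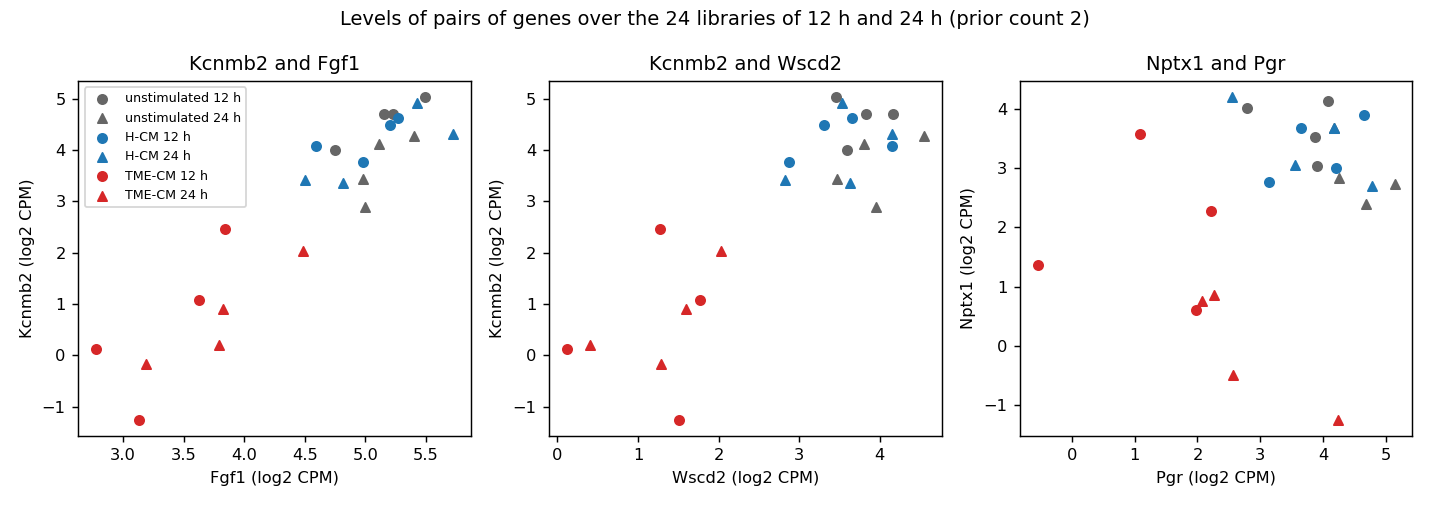
Levels (log2 CPM, prior count 2) of Kcnmb2 with Fgf1, of Kcnmb2 with Wscd2 and of Nptx1 with Pgr in the 24 libraries of 12 h and 24 h, one point per library. In the first 2 panels the 8 TME-CM libraries form a low cluster apart from the 16 controls, and in the third they spread along Pgr, with Nptx1 low at 24 h.

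The genes whose profiles were most like each of the 5 were looked for among 10192 genes that averaged 5 CPM or more. For Ntsr1 they were Gm13889 (r = 0.92), Dlk1 (0.91), a Notch ligand relative, and Pln (0.90), which encodes phospholamban. For Kcnmb2 they were Fgf1 (0.93), the acidic fibroblast growth factor gene, Ehd4 (0.92) and Mtss1 (0.91), and the same 3 led by Spearman's rho. Wscd2 shared Ehd4 (0.92) and Fgf1 (0.90) with Kcnmb2, with Gm16010 (0.90) between them. For Nptx1 the leading genes were Ank (0.82), Plcl1 (0.82) and Cd97 (0.82), and for Pgr they were Ccdc80 (0.86), Edn3 (0.85), the endothelin 3 gene, and Jph2 (0.85). Spearman's rho put other genes first for Ntsr1, Nptx1, Wscd2 and Pgr. Pearson's r over the 9 group means put other genes first for all 5, led by Cux1 for Kcnmb2 (0.96), and kept 1 of the 3 for Wscd2 and 0 for the others.

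Fgf1 is an example of a profile shared with Kcnmb2 at a smaller step. It was at 13.5 ± 5.26 CPM with TME-CM, 33.6 ± 13.0 with H-CM and 32.1 ± 4.53 without stimulation at 24 h (SD, n = 4). The log2 fold change of TME-CM against H-CM was −1.40 (SE 0.27), a value that the search for likeness had used, and H-CM against unstimulated EGCs gave 0.09 (adjusted p = 0.964, edgeR). Dlk1 was at 259 ± 12.2, 718 ± 153 and 1028 ± 99.7 CPM in the same order at 24 h (SD, n = 4), and H-CM against unstimulated EGCs gave −0.52 (SE 0.14, adjusted p = 0.0557). Edn3 was at 4.72 ± 2.31, 10.4 ± 4.10 and 8.04 ± 2.50 CPM, and, as with Pgr, its TME-CM and H-CM libraries overlapped at 24 h. Jph2 was the one of these genes called between the controls at 24 h (H-CM against unstimulated, log2 −1.16, SE 0.28, adjusted p = 0.0424, edgeR).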

How the data were processed

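RNA was profiled from 36 libraries of primary embryonic EGCs with the QuantSeq 3′ mRNA kit. The authors filtered adapters, used HISAT2 for alignment to mm10, kept uniquely mapped reads and counted them per gene; the submitters' notes also name FastQC 0.11.7 and SAMtools 1.5. What they deposited are raw counts, one per gene symbol and library. The gene annotation and strand setting are not given in the sources used here.

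Models were fitted with edgeR 4.0.16 (R 4.3.3, limma 3.58.1), using filterByExpr (minimum count 10), TMM and a quasi-likelihood model with one mean per group on the 12 libraries of each time point, or on the 12 unstimulated libraries. Calls are adjusted p under 0.05 (Benjamini-Hochberg over all genes kept). Levels are CPM over all 36 libraries. A count of 0 was read as up to 3 counts, which covers counting error only. Alternatives were DESeq2 1.42.0 (size factors, Wald test), no filter, one model of 36 libraries, only the libraries compared, the replicate block, Yam1 removed, each library left out and, added after seeing the data, a term for a Yam1 share above 25%. The calling was tested on simulated data. The 5 genes and all lists were chosen with earlier results of these data known. Genes named are the 5, the 3 most like each, listed genes that passed and abundant or defining list members; Fgf1, Dlk1, Edn3 and Jph2 were singled out after their values were seen. Positions and promoters are from RefSeq GRCm38.p6.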

Additional observations from a re-analysis of the deposited data

Results flagged for a closer look

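In 45 groups of 4 libraries (5 genes, 9 groups), 3 had 1 library standing apart from the other 3, where chance flags about 1 in 20 groups. Pgr at 24 h was at 17.3 CPM in TME-CM replicate 2, with the next library at 5.11 CPM. At 6 h, Ntsr1 was at 23.9 CPM in TME-CM replicate 2, with the next library at 3.32 CPM. Pgr at 6 h was at 14.0 CPM in TME-CM replicate 3, with the next at 1.91 CPM. All 3 were the highest library of a TME-CM group.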

How the results depend on the processing

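The 6 h libraries spread widely, and Kcnmb2 fell under the filter there and was not tested between stimulations. The lowest TME-CM values of Kcnmb2, Nptx1, Wscd2 and Pgr rest on few reads. No member was called in any alternative of H-CM against unstimulated EGCs, of the 6 h comparisons or of the unstimulated times. Between stimulations at 6 h, Kcnmb2 was not examined in these alternatives either. All TME-CM differences of the 5 genes at 12 h and 24 h kept their direction.

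Counts of genes over the whole table moved most. One model of all 36 libraries gave, for genes lower with TME-CM, 403, 12 and 11 against H-CM and 574, 64 and 70 against unstimulated EGCs, in order of time, and 34 genes in either direction for H-CM against unstimulated EGCs at 24 h (main values 0, 82, 337, 2, 211, 597 and 258). Without the filter, lower genes numbered 1 (6 h) and 194 (12 h) against H-CM and 30 (6 h) against unstimulated EGCs, H-CM against unstimulated EGCs gave 1, 168 and 446 in order of time, and unstimulated 12 h against 6 h gave 147. DESeq2's Wald test gave 2 and 156 lower against H-CM at 6 h and 12 h, 10 against unstimulated EGCs at 6 h, 98 and 410 for the controls at 12 h and 24 h, and 366 for unstimulated 12 h against 6 h (61 in the main fit). Fits of only the libraries compared gave 37 lower against H-CM and 28 between the controls at 12 h, 10 for unstimulated 12 h against 6 h and 2 for 24 h against 12 h. The term for the Yam1 share gave 413 between the controls at 24 h. For TME-CM against unstimulated EGCs at 6 h, DESeq2's size factors, the Yam1 term and only the libraries compared each gave 0 lower genes. The cause of these moves was not tested.

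At 6 h, uncalled estimates changed sign. With the Yam1 term, TME-CM against H-CM was 1.51 for Ntsr1, 0.28 for Pgr and 1.85 for Wscd2, against unstimulated EGCs 1.33, 1.06 and 1.83, and unstimulated 12 h against 6 h gave 0.16 for Wscd2. In one model of 36 libraries H-CM against unstimulated EGCs was 0.0018 for Ntsr1 and 0.060 for Wscd2, and 0.010 for Wscd2 with only the libraries compared.

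Replicate numbers showed no clear pairing of the libraries, though the check used cannot exclude it. Correlations of same-numbered deviations lay between −0.16 and 0.23, over 0.1 in 1, 2 and 3 of 12 pairs in order of time. Those of differently numbered libraries lay between −0.31 (at 6 h) and 0.27 (at 12 h). With the replicate block, H-CM against unstimulated EGCs at 6 h was 0.25 for Ntsr1, −0.27 for Pgr and 0.66 for Wscd2, TME-CM against unstimulated EGCs at 6 h was 0.20 for Wscd2, unstimulated 12 h against 6 h was 0.25 for Wscd2 with 35 genes called, and TME-CM against unstimulated EGCs at 6 h gave 0 lower genes. At 24 h the block left 336 genes lower against H-CM.

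Leaving out 1 library at a time, genes lower with TME-CM against H-CM ranged from 0 to 5 at 6 h, 33 (without TME-CM replicate 1) to 103 at 12 h and 189 (without H-CM replicate 3) to 364 at 24 h, and against unstimulated EGCs from 0 to 46 at 6 h and 138 to 192 at 12 h. Between the controls the count ranged from 23 to 57 at 12 h and 161 to 250 at 24 h, and for unstimulated 12 h against 6 h from 15 to 267. Against H-CM at 12 h, log2 fold changes ranged from −4.70 to −2.87 for Kcnmb2 and −1.98 to −0.78 for Nptx1, and against unstimulated EGCs from −5.08 to −3.25 and −2.33 to −1.15. H-CM against unstimulated EGCs ranged from −0.53 to 0.43, −0.20 to 0.20 and −0.080 to 0.25 for Ntsr1 in order of time, and −0.53 to 0.64 for Wscd2 at 6 h. For Wscd2, TME-CM at 6 h ranged from −1.59 to 0.42 against H-CM and −1.62 to 0.60 against unstimulated EGCs, and unstimulated EGCs from −0.67 to 0.70 (12 h against 6 h) and −0.030 to 0.37 (24 h against 12 h).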
